A study of Mus musculus with 48 samples.

Results

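Nuclear-encoded oxidative phosphorylation (OXPHOS) genes are the chromosomal genes for subunits of the respiratory chain and of ATP synthase. They were taken here by symbol: every gene whose symbol starts with Nduf plus the letter a, b, c, s or v and a number, the genes Sdha to Sdhd, and every symbol starting with Uqcr, with Cox followed by a number from 4 to 8, or with Atp5. Symbols that end in -ps were left out. The rule gave 88 of the 37620 genes counted: 38 of complex I, 4 of complex II, 8 of complex III, 19 of complex IV, 17 of ATP synthase and the 2 genes of the NDUFA4 family, whose better known member, Ndufa4, was first described with complex I and is now placed with complex IV. Reads shared with near-identical pseudogene copies cannot be counted from these tables. The rule follows names, so it also takes in Atp5s, a coupling factor homologue, and Cox7a2l, an assembly factor of supercomplexes, and it misses Ndufab1, Cyc1 and other subunit genes with other names. The 6 symbols left out as pseudogenes reached at most 0.907 CPM (counts scaled to the library size) on average.

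The data are RNA sequencing libraries of 16 populations of mouse hippocampal neurons, 3 per population, each made from fluorescent neurons that were picked by hand. Of the populations, 10 are pyramidal cells of field CA1: dorsal, intermediate and ventral, proximal and distal, superficial and deep, and cells defined by their projection target (amygdala, nucleus accumbens or postsubiculum). CA3 pyramidal cells and granule cells of the dentate gyrus (DG) were each taken from the dorsal and the ventral hippocampus. The remaining groups are interneurons named for parvalbumin (PV) and for somatostatin (SST). The labels give each group by cell population and field. Genotype, strain, age, the source of the fluorescence and the number of animals behind a library are not given in the sources used here. P-values therefore measure the spread between libraries described as biological replicates.

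Complex I oxidises NADH and complex II succinate, and both pass electrons to ubiquinone. Complex III hands them on to cytochrome c, complex IV to oxygen, and the protons pumped along the way drive ATP synthase. Most subunits are nuclear-encoded, while a core set of complexes I, III and IV and of ATP synthase is read from the mitochondrial genome. In the hippocampus, fast-spiking PV basket cells are known for densely packed mitochondria and a high oxygen demand.

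Depth ranged from 5.12 to 31.98 M reads in genes per library, and genes of the mitochondrial genome took 8.27% to 24.5% of them. The labelled cell types were checked against their markers: Pvalb averaged 329 CPM in PV interneurons, Sst 4651 CPM in SST interneurons, and Gad2, a GABA-synthesising enzyme, 2731 and 4723 CPM in the same order. PV interneurons also held 651.6 CPM of Sst, more than their Pvalb, and SST interneurons 24.99 CPM of Pvalb, so the markers did not separate the groups fully. Some libraries stood apart. SST replicate 3 had the lowest share of OXPHOS reads of its group and the highest sum of pyramidal markers, 370.4 CPM against 139.0 and 182.6 CPM. Accumbens replicate 2 held 0.587% of its reads in the 88 genes, against 0.803% and 0.757%. Proximal replicate 1 carried 81.3 CPM of Pvalb, against 0.0988 and 0.18 CPM in the other proximal libraries. Accumbens replicate 3 carried 516.1 CPM of Sst and 73.9 CPM of GABA markers, against at most 5.75 and 0.872 CPM in its group. Counts of nuclear OXPHOS genes called in comparisons of these groups are also given without them, singly or as a range over libraries left out. Counts in other gene lists, such as ribosomal protein or mitochondrial-genome genes, are given with all libraries only.

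Counted by reads, the 88 genes held from 0.404% to 1.63% of a library's gene reads, and several populations differed in this share beyond the spread of their libraries. PV interneurons were highest, with 1.58% (libraries at 1.63%, 1.61% and 1.49%). Distal CA1 followed with 1.29% (1.31%, 1.23% and 1.34%), SST interneurons with 1.24% (1.37%, 1.54% and 0.809%) and proximal CA1 with 1.07% (1.05%, 1.09% and 1.08%). No proximal or distal library overlapped with any library of the other 8 CA1 populations, whose libraries lay between 0.404% and 0.808%. The lowest shares were those of postsubiculum-projecting CA1, 0.412% (0.421%, 0.41% and 0.404%), and of ventral DG, 0.513% (0.549%, 0.511% and 0.479%). From dorsal DG, at 0.791%, down to deep CA1, at 0.644%, neighbours in the order overlapped. Preparation batches are not given in the labels, so batch and population cannot be told apart.

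**Figure D1:**
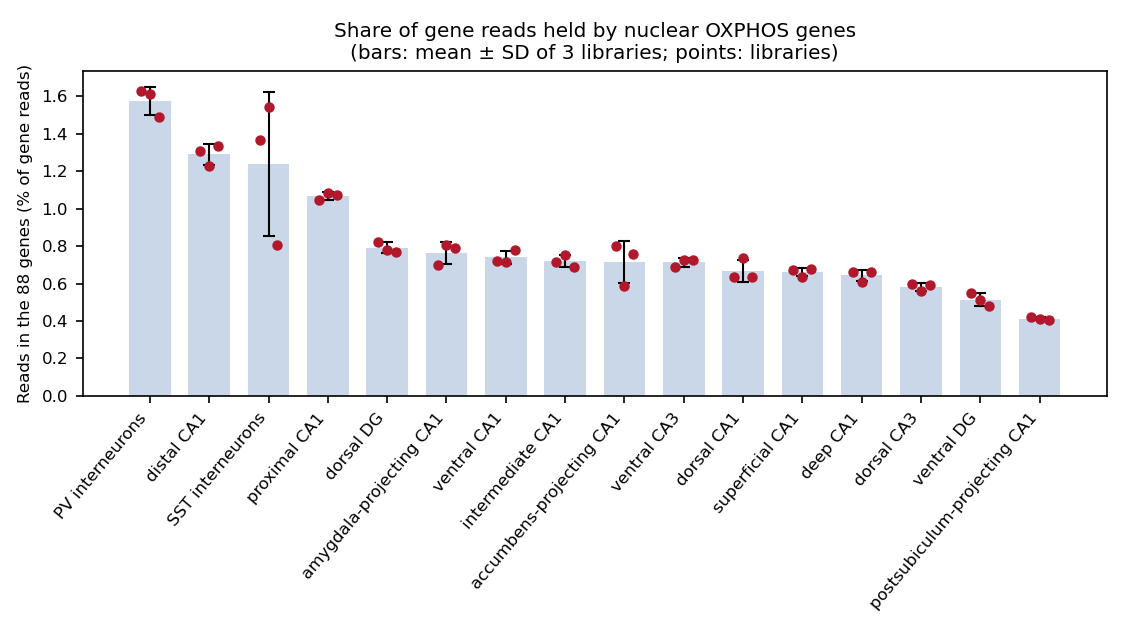
Share of all gene reads (%) that fell in the 88 nuclear OXPHOS genes, by population, as bars (mean ± SD of 3 libraries) with a point per library. PV interneurons average 1.58% and postsubiculum-projecting CA1 cells 0.412%, and SST replicate 3 sits at 0.809%, apart from its group.

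The complexes followed the same order with small departures. Per library, the median of a complex's genes, relative to each gene's mean over the populations on a log2 scale, averaged 1.35 for complex IV, 1.16 for complex I, 1.10 for ATP synthase, 1.06 for complex III and 0.88 for complex II in PV interneurons. In ventral DG these medians were -0.84, -0.93, -0.79, -0.90 and -0.51. Complex II departed most in dorsal DG, where its median was -0.58 while those of the other complexes lay between -0.03 and 0.16. ATP synthase genes held the most reads in each population, 0.668% of gene reads in PV interneurons and 0.156% in postsubiculum-projecting cells.

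Levels of different genes were compared by the deposited FPKM values, which are per length. Atp5b, the catalytic beta subunit of F1, led with a mean of 2272 FPKM over the 16 populations, followed in its complex by Atp5h, a peripheral stalk subunit, at 308 FPKM. The highest genes of the other complexes were Cox7c at 426.6 FPKM, Ndufa4 at 350.0 FPKM, Uqcr10 at 229.5 FPKM, Sdha, the flavoprotein of complex II, at 160.6 FPKM, and Ndufa5 at 156.5 FPKM. The lowest genes of complexes II and III were Sdhc, a membrane anchor, at 40.4 FPKM and Uqcrfs1, the Rieske iron-sulphur protein, at 48.4 FPKM. In complex I, complex IV and ATP synthase the lowest were Ndufb4c, listed at 0 in all populations, Cox4i2 at 0.00957 FPKM and Atp5s at 14.1 FPKM. Of the 88 genes, 76 averaged at least 10 CPM over the populations, and 6 stayed under 1 CPM in each of them.

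**Figure D2:**
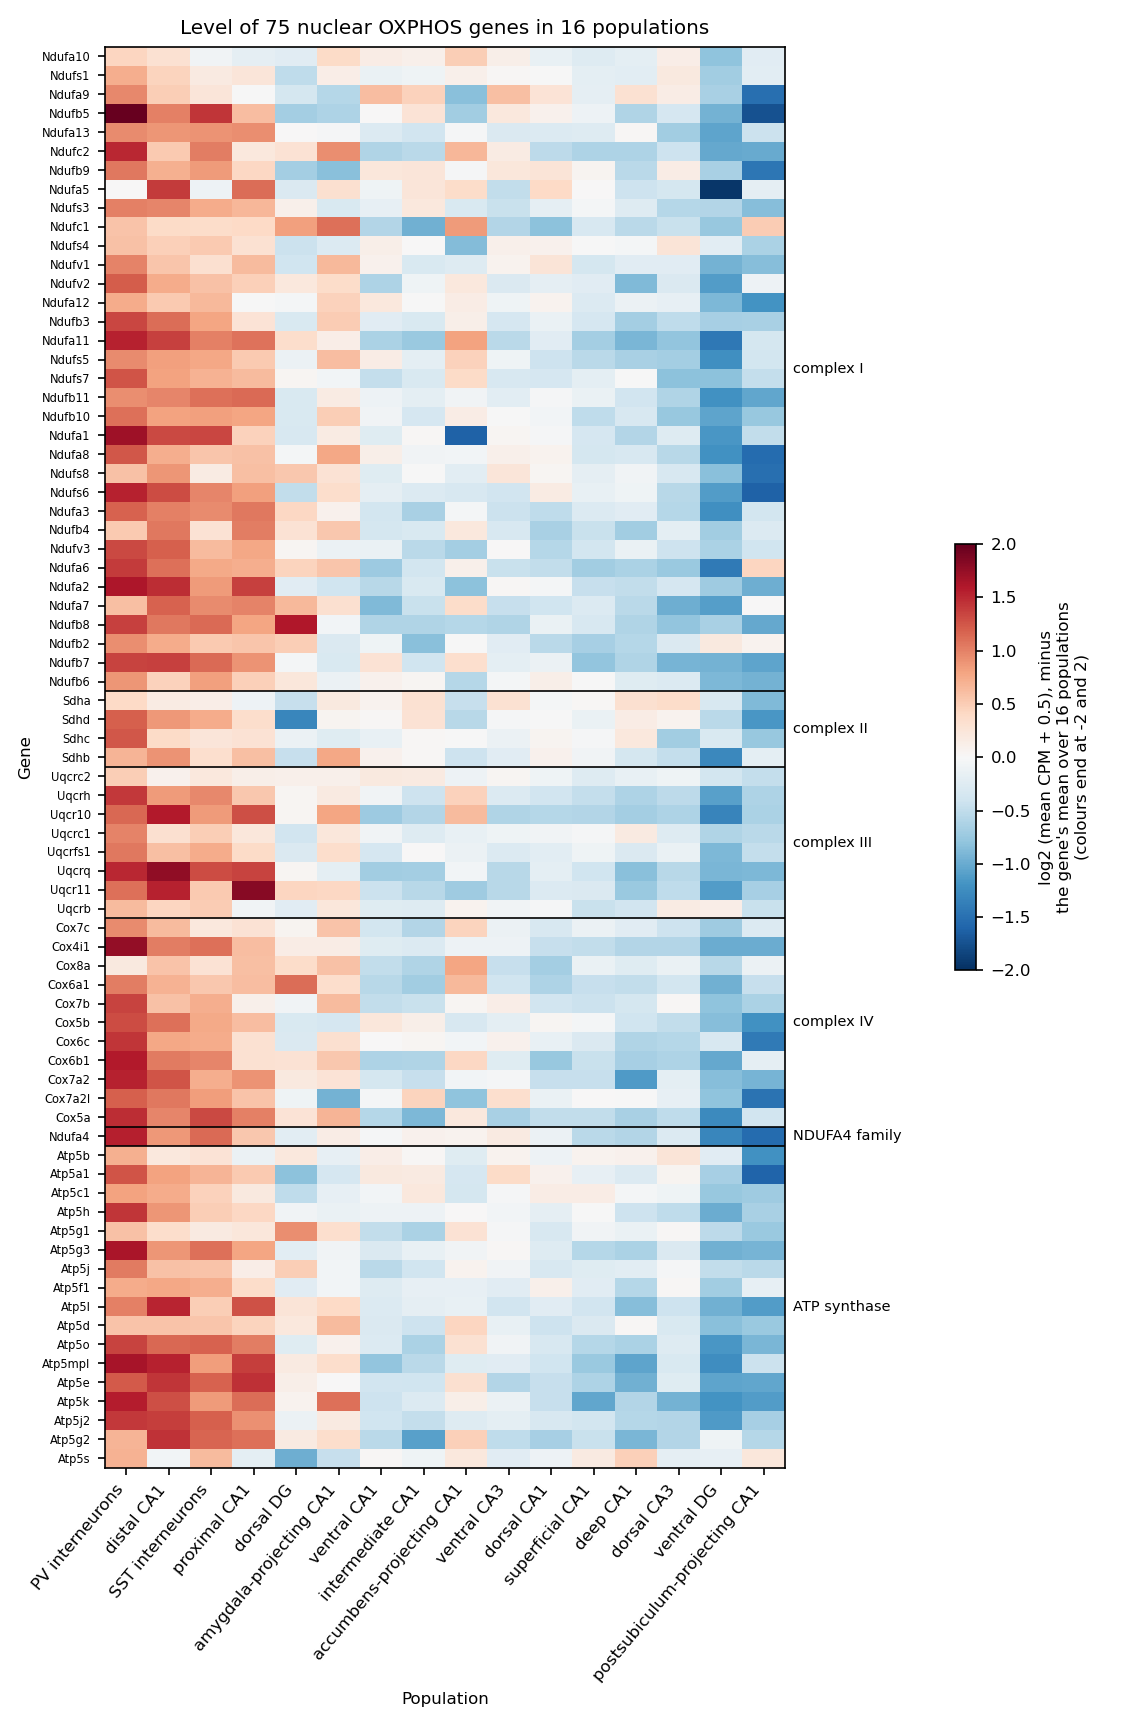
Mean level of 75 of the genes with at least 10 CPM on average, as log2 (CPM + 0.5) minus the gene's mean over the 16 populations, with genes in rows grouped by complex and populations in columns ordered by share of reads. Red on the left (PV, distal, SST, proximal) and blue on the right (ventral DG, postsubiculum-projecting) run through most genes of each complex, and Atp5s, Sdha, Ndufc1 and Ndufa9 follow it least.

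Across populations the genes varied together. A test of any difference among the 16 populations called 79 of 81 genes tested (edgeR), where 65.3% of all genes were called, and missed Cox7b2 and Atp5s. The 79 include Cox6a2 and Cox8b, which passed the filter on low counts through the PV libraries, so their calls are no support. Nor are those of the low isoforms Cox7a1 and Cox6b2, whose reads stood out in single libraries, as given below. With 1 replicate number left out of all populations at a time, 71 to 75 genes were called. The profile of each gene over the 16 population means was correlated with the mean profile of the other 75, on a log2 scale, and the median Pearson r was 0.877, with 72 of 76 genes above 0.5. These 16 points share libraries, depth and scaling with one another, and the values are descriptions. By complex, the median r was 0.902 for ATP synthase, 0.888 for complex IV, 0.885 for complex III, 0.857 for complex I and 0.762 for complex II. Atp5j2, a membrane subunit of ATP synthase, at 0.983, and Cox4i1, the regulatory core-associated subunit of complex IV, at 0.981, were closest to the common profile. The farthest were Atp5s at 0.235, Sdha at 0.406, Ndufc1 at 0.453 and Ndufa9 at 0.478, the last 2 being accessory subunits of complex I. PV interneurons were the highest population for 55 of the 76 genes, distal CA1 for 11, proximal CA1 and dorsal DG for 3 each, and the amygdala- and accumbens-projecting cells for 2 each. Ventral DG was the lowest for 38 and postsubiculum-projecting CA1 for 26. The highest population exceeded the lowest by a median of 5.38-fold, against 3.78-fold for the 8304 genes at 10 CPM or more.

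Promoters of genes that varied together are shown here with the motifs of regulators known for mitochondrial genes: nuclear respiratory factor 1 (NRF1, core GCGC, then any base, then TGCGC), the ETS factor GABPA (core CCGGAAG) and YY1 (core AAGATGGC), each searched on both strands from 250 bases before to 50 bases after the start. RefSeq promoter windows (GRCm38.p6) matched 66 of the 88 genes. An NRF1 core occurred in 25.8% of these 66 genes and in 5.19% of the 27025 genes with a window, a GABPA core in 24.2% against 9.93%, a YY1 core in 13.6% against 3.19%, and any of them in 54.5% against 16.4%. The 27025 genes include the 66 and were not chosen to match them in expression. Of the 71 windows of the 66 genes, 56 matched the start of an annotated transcript. The matches are descriptions of sequence and not sites of binding. The upstream 250 bases are printed for the 4 genes closest to the common profile that had a match there, Uqcrh (chr4:116075071-116075320, minus strand), Atp5h (chr11:115419920-115420169, minus strand), Atp5k (chr5:108434400-108434649, minus strand) and Atp5e (chr2:174464102-174464351, minus strand), and for Sdha (chr13:74350241-74350490, minus strand), which was far from the profile and had 3 NRF1 cores. All 5 printed genes were chosen only among those with a single promoter window, with the genes of 1 chromosome left out. Capitals mark the cores, as read on the gene's strand.
Uqcrh: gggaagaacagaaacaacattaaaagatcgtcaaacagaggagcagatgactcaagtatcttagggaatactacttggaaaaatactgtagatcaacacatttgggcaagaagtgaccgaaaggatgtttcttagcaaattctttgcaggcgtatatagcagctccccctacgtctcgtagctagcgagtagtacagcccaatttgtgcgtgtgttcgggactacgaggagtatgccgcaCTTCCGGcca
Atp5h: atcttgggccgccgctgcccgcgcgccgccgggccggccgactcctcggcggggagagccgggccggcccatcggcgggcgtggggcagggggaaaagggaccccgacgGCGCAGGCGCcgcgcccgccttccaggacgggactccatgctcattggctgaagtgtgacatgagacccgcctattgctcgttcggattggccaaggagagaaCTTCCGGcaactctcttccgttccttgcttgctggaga
Atp5k: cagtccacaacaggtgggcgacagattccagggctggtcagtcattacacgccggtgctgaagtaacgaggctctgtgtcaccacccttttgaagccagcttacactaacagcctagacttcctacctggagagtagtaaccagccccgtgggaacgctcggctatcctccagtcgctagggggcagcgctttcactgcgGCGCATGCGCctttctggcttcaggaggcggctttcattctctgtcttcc
Atp5e: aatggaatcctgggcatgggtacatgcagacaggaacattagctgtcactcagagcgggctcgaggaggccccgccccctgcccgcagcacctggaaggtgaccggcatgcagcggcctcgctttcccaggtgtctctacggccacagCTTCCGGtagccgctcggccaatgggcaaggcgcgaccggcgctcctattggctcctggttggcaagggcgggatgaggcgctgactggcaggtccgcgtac
Sdha: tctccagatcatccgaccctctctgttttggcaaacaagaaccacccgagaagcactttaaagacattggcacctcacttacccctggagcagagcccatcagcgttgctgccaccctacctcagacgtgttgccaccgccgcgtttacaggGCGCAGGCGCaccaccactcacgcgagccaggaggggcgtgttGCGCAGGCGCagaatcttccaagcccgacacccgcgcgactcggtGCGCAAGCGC
In Uqcrh, a hinge protein of complex III, the GABPA core began 10 bases before the start, and in Atp5e, the epsilon subunit, 102 bases before it. Atp5h and Atp5k, an accessory subunit of the membrane part, had both NRF1 and GABPA cores, Atp5k with its GABPA core 12 bases after the start and so outside the printed stretch.

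Genes outside the rule were ranked by the same correlation, and the 8 most alike among 8228 were Ndufab1, an acyl carrier protein of complex I, at r = 0.961, Hspe1, a mitochondrial chaperonin, at 0.96, Sem1, a proteasome subunit, at 0.956, the ribosomal protein gene Rpl27 at 0.942, Chchd2, a mitochondrial protein, at 0.939, Rpl38 at 0.937, Ubb, a ubiquitin gene, at 0.93 and Pam16, a subunit of the mitochondrial import motor, at 0.928. Cycs, cytochrome c itself, had r = 0.789 and Cyc1, cytochrome c1, r = 0.67. The coactivator Ppargc1a had r = 0.482 and the receptor Esrrg r = 0.44. Of the factors whose motifs were searched, Nrf1 had r = 0.185, Yy1 r = -0.203 and Gabpa r = -0.516.

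PV interneurons exceeded dorsal CA1 pyramidal cells in most of the genes. Of 80 genes tested, 68 were called higher in PV interneurons and 0 lower (edgeR quasi-likelihood test, Benjamini-Hochberg adjusted p under 0.05), where 29.7% of all genes tested were called, 16.3% higher and 13.4% lower. The median change was 1.39 on the log2 scale, against 0.13 for all genes. Calls covered 29 of 35 complex I genes tested, 3 of 4 of complex II, 7 of 8 of complex III, 13 of 15 of complex IV, 15 of 17 of ATP synthase, and Ndufa4. Without any library in turn the count ran from 53 to 73. The 80 genes of this fit include Cox6a2 and Cox8b. Both passed the filter on low counts through the PV libraries, so their results in its comparisons are no support.

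Atp5g3, which codes for the proton-carrying c subunit, stood at 397.5, 436.3 and 404.4 CPM in PV interneurons and at 105.7, 130.0 and 97.5 CPM in dorsal CA1, a 3.77-fold difference (log2 SE 0.18, adjusted p = 6.06e-06, edgeR). Ndufb5, a membrane-arm subunit of complex I, reached 340.0, 265.0 and 265.2 CPM against 61.6, 85.0 and 68.9 CPM (4.11-fold, log2 SE 0.20, adjusted p = 8.19e-06). Cox6b1, a subunit that bridges the complex IV dimer, reached 370.2, 227.5 and 220.6 CPM against 46.8, 59.3 and 54.1 CPM (5.20-fold, log2 SE 0.23, adjusted p = 9.26e-06). In all 3 genes the lowest PV library was above the highest dorsal CA1 library by a wide margin. Ndufc2, Cox6c and Ndufa4 followed by p, with 4.19-, 3.04- and 3.26-fold differences and adjusted p from 1.60e-05 to 4.44e-05. Among the reference subunits of the 5 complexes, Cox4i1 averaged 529.6 ± 64.0 (SD) against 113.7 ± 8.55 CPM, Atp5b 2212 ± 173 against 1264 ± 286 CPM, Uqcrfs1 115.2 ± 15.3 against 47.6 ± 6.64 CPM, Ndufs1, an iron-sulphur subunit of complex I, 151.7 ± 17.9 against 91.4 ± 6.62 CPM, and Sdha 526.4 ± 56.3 against 389.7 ± 36.4 CPM (n = 3 each).

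SST interneurons also exceeded dorsal CA1. Of 80 genes, 49 were called higher and 0 lower, with 27.4% of all genes called (15.6% higher and 11.9% lower) and a median log2 change of 0.96 against 0.09 for all genes. Cox5a, a complex IV subunit, stood at 84.9, 115.0 and 61.5 CPM and averaged 87.1 ± 26.8 CPM against 24.2 ± 3.93 CPM (3.64-fold, log2 SE 0.28, adjusted p = 0.000334), and Ndufa1, a small membrane subunit of complex I, stood at 67.8, 80.3 and 88.4 CPM and averaged 78.8 ± 10.4 against 30.4 ± 2.58 CPM (2.63-fold, log2 SE 0.22, adjusted p = 0.00044, edgeR, n = 3 each). Atp5g3, Cox6b1, Ndufc2 and Ndufb5 led the list, with 2.60- to 3.41-fold differences. SST replicate 3 was low in Cox4i1, at 129.3 CPM against 416.9 and 461.5 CPM, close to the dorsal CA1 libraries at 110.9, 123.3 and 106.9 CPM. Without that library 62 genes were called, and over all libraries left out in turn the count ran from 33 to 62.

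Between the interneurons, 4 of 80 genes were called, all higher in PV cells, where 6.15% of all genes were called (2.62% higher in PV and 3.53% in SST cells), and 26 had an unadjusted p under 0.05. The median change was 0.43 on the log2 scale, and 74 genes leaned to PV and 6 to SST. Besides Cox6a2, described next, they included Atp5a1, the F1 alpha subunit, at 1542, 1372 and 1445 against 909.9, 1011 and 1003 CPM (1.49-fold, log2 SE 0.14, adjusted p = 0.0295, edgeR), and Cox6c, at 299.9, 303.6 and 290.5 against 184.5, 209.9 and 161.2 CPM (1.61-fold, log2 SE 0.17, adjusted p = 0.0315). The groups did not overlap in either gene. Cox6a2 passed the filter on low counts through the PV libraries, so its call among the 4 is no support. Leaving out SST replicate 1, PV replicate 1 or PV replicate 3 ended all 4 calls, leaving out dorsal CA1 replicate 1, 2 or 3, which enter the same fit, left 1, 2 and 2, and leaving out PV replicate 2 left 2. The call of Atp5a1 held in 6 of 15 alternatives and was also lost without SST replicate 2 and with a replicate block, and that of Cox6c held in 7 of 15. Without SST replicate 3, the library that stood apart, 5 were called, and DESeq2 called 9.

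Cox6a2, the heart and skeletal muscle isoform of complex IV subunit 6a, was read nearly only in interneurons. PV interneurons had 1333, 999 and 1014 reads, 43.2 ± 8.71 CPM (SD, n = 3), and SST interneurons 68, 117 and 7 reads, 3.15 ± 2.56 CPM. The gene passed the filter on low counts through the PV libraries, so these levels are a description, with no test. The 3 dorsal CA1 libraries had no read, so PV interneurons were at least 364-fold higher and SST interneurons at least 26.5-fold higher, taking 3 reads per library as the floor. Of the 42 libraries outside the interneurons 3 had any read, and the highest, 24 reads, was proximal replicate 1, the library with 81.3 CPM of Pvalb. Its ubiquitous partner Cox6a1 was higher than Cox6a2 also in PV interneurons, at 559 ± 104 against 75.1 ± 13.8 FPKM.

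The other tissue-restricted isoforms were low, with some libraries above the rest. Cox8b, the muscle isoform of subunit 8, had 34, 21 and 26 reads in PV interneurons, at least 8.83-fold above dorsal CA1 and at least 6.99-fold above SST interneurons, both without a read, and at most 4 reads in any library outside the interneurons. Its partner Cox8a averaged 166.4 ± 48.9 CPM in PV interneurons. Cox7a1, a muscle isoform of subunit 7a, reached 153 reads in distal replicate 2 and 81 in accumbens replicate 2, against at most 14 and 0 reads in the other libraries of these groups, while its partner Cox7a2 averaged from 32.7 CPM in deep CA1 to 210.3 CPM in PV interneurons. Cox6b2 reached 30 reads in dorsal DG replicate 2 and Ndufa4l2 41 reads in ventral DG replicate 2. Cox7b2 had at most 42 reads in a library, Cox8c 16 reads in all 48 libraries, all in SST replicate 3, and Cox4i2 6 reads in all. Cox4i2, Cox8c and Ndufa4l2, known from lung, testis and hypoxic tissue, were at or near 0 beside Cox4i1, Cox8a and Ndufa4.

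**Figure D3:**
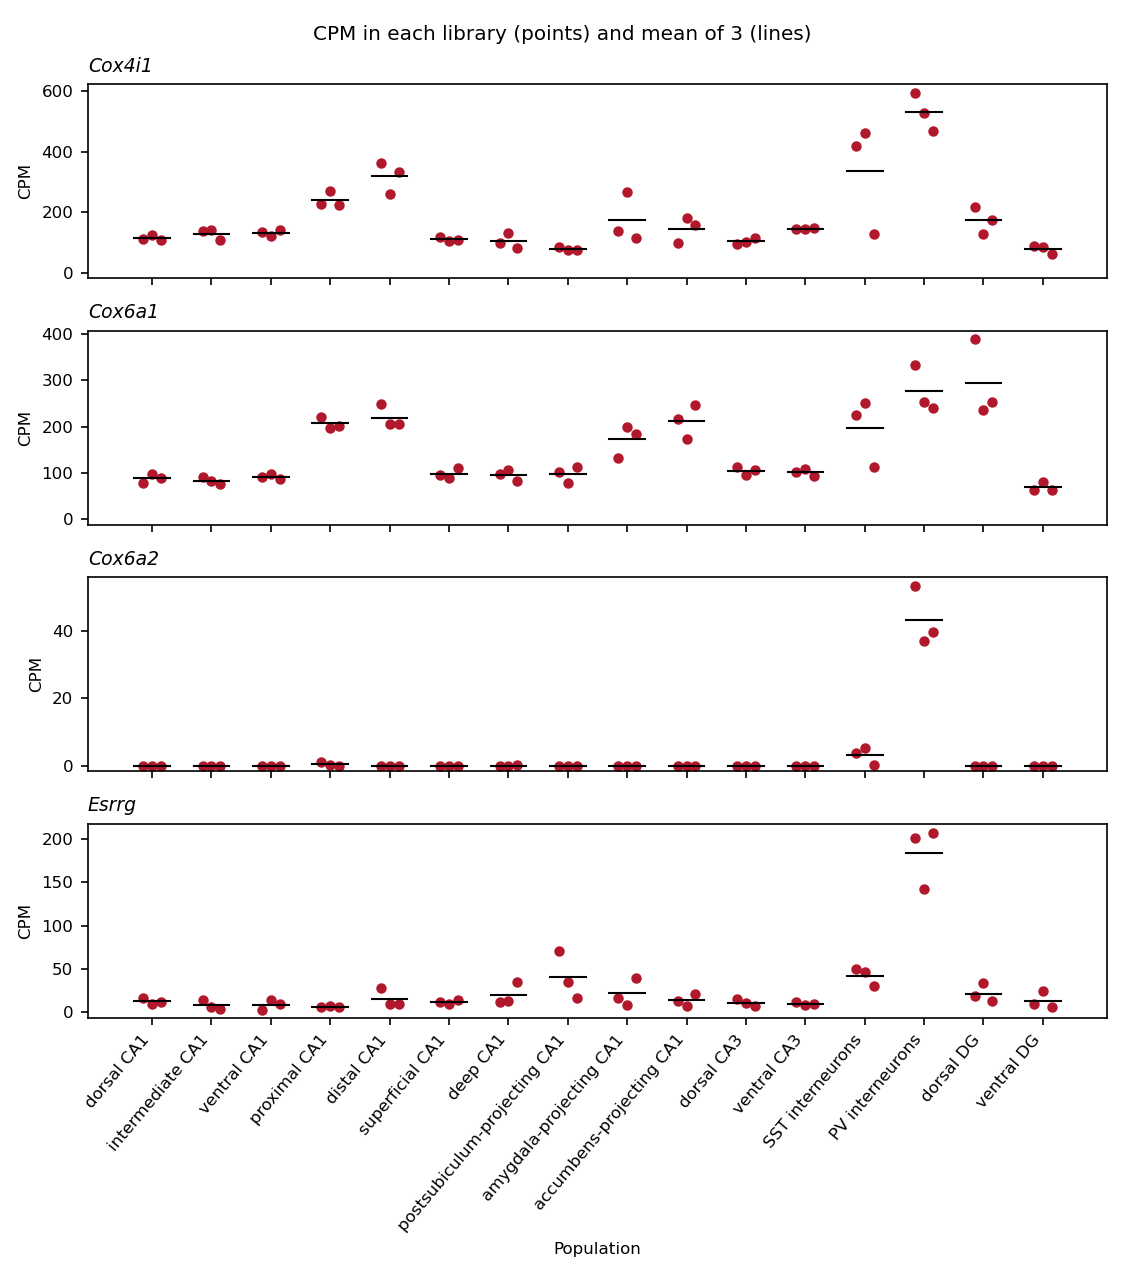
CPM per library (points) and mean of 3 libraries (lines) in the 16 populations for Cox4i1, its complex IV partner Cox6a1, the muscle isoform Cox6a2 and the receptor Esrrg. Cox6a2 lies between 36.9 and 53.2 CPM in the PV libraries and at or near 0 in all populations but the SST interneurons, and Esrrg is highest in the same PV libraries.

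Regulators and partners of the pathway were described beside the genes. Esrrg, an orphan nuclear receptor known for driving oxidative metabolism, stood at 200.7, 142.7 and 207.2 CPM in PV interneurons, 50.0, 46.1 and 30.6 CPM in SST interneurons and 16.9, 9.70 and 12.2 CPM in dorsal CA1. It was 3.85 higher on the log2 scale in PV interneurons than in dorsal CA1 (SE 0.31, adjusted p = 1.77e-06, edgeR) and 2.13 higher than in SST interneurons (SE 0.29, adjusted p = 0.000837). Ppargc1a, the coactivator PGC-1alpha of mitochondrial biogenesis, averaged 423.2 ± 39.6 CPM in PV interneurons, 278.8 ± 50.9 in SST interneurons and 96.1 ± 10.1 in dorsal CA1, 4.48-fold and 2.95-fold above dorsal CA1 (adjusted p = 4.42e-06 and 6.59e-05). Cycs was 2.82-fold higher in PV than in dorsal CA1 cells (adjusted p = 5.09e-05), while Gpd2, the mitochondrial glycerol phosphate dehydrogenase, was 9.35-fold lower (adjusted p = 0.000124) and Gabpa 2.40-fold lower (adjusted p = 0.00429). Where 16.3% of all genes were higher and 13.4% lower in PV interneurons, of the 15 regulators tested, 4 were called higher and 1 lower in PV interneurons, and of 42 assembly factors 10 were higher and 0 lower. The OXPHOS genes of the mitochondrial genome were also higher: 12 of 12 were called higher in PV than in dorsal CA1, with a median log2 change of 1.44, and 4 of 12 in SST, with 0.56.

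Markers of other cells and other gene classes were read beside these results. The 8 astrocyte markers summed to 24.8 to 59.9 CPM in PV and 283.5 to 376.6 CPM in dorsal CA1 libraries, nearly all Slc1a2, a glutamate transporter. The 7 oligodendrocyte markers summed to 5.05 to 33.6 CPM in PV, 49.7 to 892 CPM in SST and 13.7 to 27.4 CPM in dorsal CA1 libraries. The 7 microglia markers, at no more than 1.23 CPM in dorsal CA1, summed to 31.3 to 69.1 CPM in SST libraries. Of 76 ribosomal protein genes, which share short transcripts and high levels with many OXPHOS genes, 40 were called higher in PV than in dorsal CA1 (median log2 change 0.94) and 64 in SST than in dorsal CA1 (median 1.52). Between PV and SST interneurons the ribosomal genes leaned the other way from the OXPHOS genes, with a median of -0.48. The part of these in the differences was not tested. In bulk libraries, more RNA of a gene per cell and a different mix of cells cannot be told apart.

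**Figure D4:**
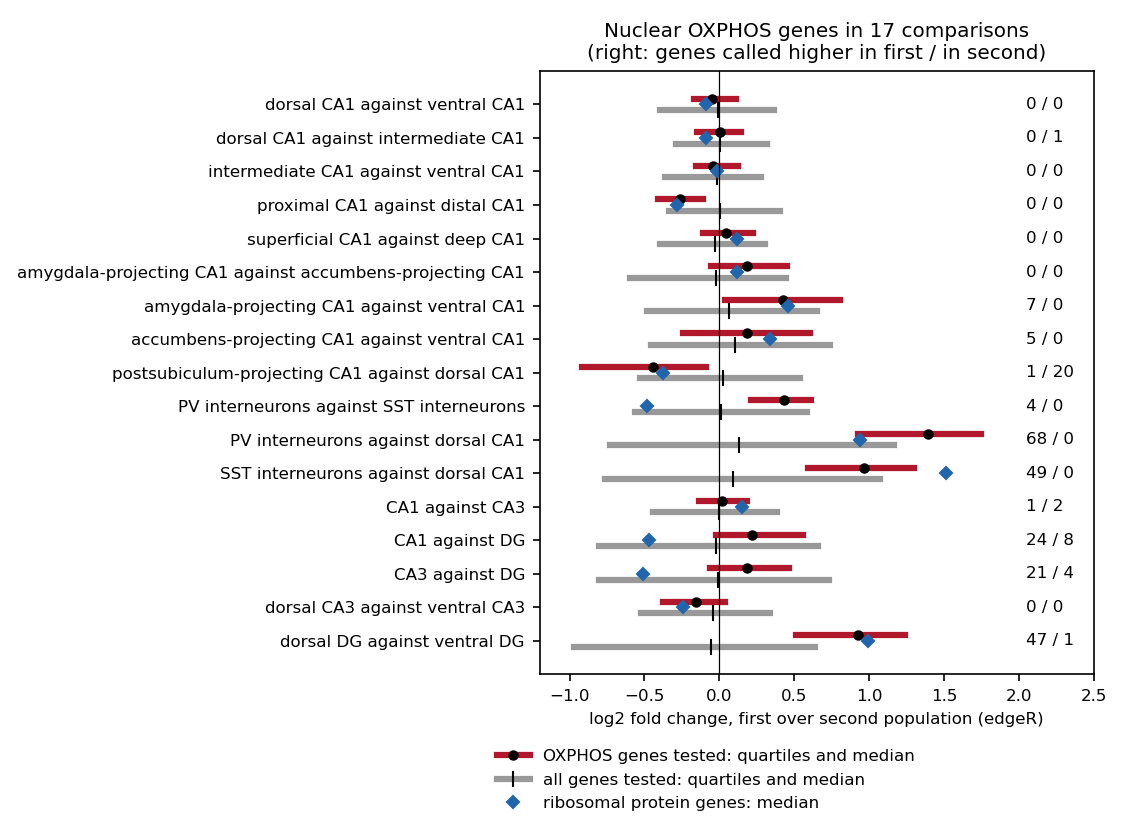
Log2 fold change of the nuclear OXPHOS genes (red bar, quartiles, black point, median), of all genes tested (grey bar and tick) and of ribosomal protein genes (blue diamond, median) in 17 comparisons, first over second population, with counts of OXPHOS genes called at the right. The OXPHOS median reaches 1.39 in PV interneurons over dorsal CA1 and -0.45 in postsubiculum-projecting over dorsal CA1 cells.

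Within the dentate gyrus, dorsal granule cells exceeded ventral ones in most of the genes. Of 76 tested, 47 were called higher in dorsal DG and 1 higher in ventral DG (edgeR), where 19.4% of all genes were called (8.71% higher in dorsal and 10.6% in ventral DG), and the median log2 change was 0.93 against -0.05 for all genes. Calls in the dorsal direction covered 19 of 35 complex I genes, 4 of 8 of complex III, 10 of 11 of complex IV, 12 of 17 of ATP synthase, Ndufa4 and 1 of 4 of complex II.

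Cox6a1 led, with 390.0, 236.5 and 253.8 CPM in dorsal and 64.0, 81.4 and 62.5 CPM in ventral granule cells (4.34-fold, log2 SE 0.19, adjusted p = 2.29e-07, edgeR). Atp5g1, another gene for the c subunit, stood at 295.4, 308.4 and 240.8 against 112.0, 93.2 and 102.6 CPM (2.81-fold, log2 SE 0.16, adjusted p = 2.56e-06), and Ndufc1 at 114.8, 106.2 and 86.8 against 30.8, 35.6 and 36.6 CPM (3.06-fold, log2 SE 0.21, adjusted p = 1.87e-05). The dorsal and ventral libraries did not overlap in any of them. Cox6b1, Atp5mpl, a small membrane subunit of ATP synthase, and Ndufa4 followed with 2.57-, 2.76- and 2.19-fold differences and adjusted p from 5.01e-05 to 0.000137. Sdhd, a membrane anchor of complex II, went the other way, with 28.9, 22.0 and 39.1 CPM in dorsal and 53.0, 55.0 and 45.8 CPM in ventral cells (1.67-fold, log2 SE 0.23, adjusted p = 0.0277). That call of Sdhd was lost in the fit of all 48 libraries and without dorsal DG replicate 2 or ventral DG replicate 1 or 2.

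The same long axis gave no call in CA3 or CA1, and the difference between fields was tested as an interaction, added after the within-field values were seen. In CA3, 0 of 76 genes were called by edgeR between dorsal and ventral cells (4.97% of all genes, 2.5% and 2.48% by direction; 10 genes with an unadjusted p under 0.05, 3 called by DESeq2), and the median log2 change was -0.16. In CA1, 0 of 76 were called between dorsal and ventral cells (15.1% of all genes, 7.17% higher in dorsal and 7.95% in ventral; 7 with an unadjusted p under 0.05, 0 called by DESeq2), with a median of -0.05. The dorsal-to-ventral change was larger in DG than in CA1 for 25 of 76 genes (9.71% of all genes called, 4.62% larger and 5.09% smaller, median 0.93) and larger in DG than in CA3 for 36 (9.47% of all genes, 4.18% larger and 5.29% smaller, median 1.13), and smaller for 0 in either. Cox6a1 headed both, with interactions of 2.21 (SE 0.27, adjusted p = 1.56e-05) and 2.06 (SE 0.27, adjusted p = 3.56e-05) on the log2 scale. These 2 tests share the DG libraries. The count for DG against CA1 fell to 13 without dorsal CA1 replicate 1, 14 without dorsal CA1 replicate 3, 13 without ventral CA1 replicate 3, 15 without ventral DG replicate 1 and 14 without ventral DG replicate 3. The count for DG against CA3 fell to 22 without dorsal CA3 replicate 2 and 21 without ventral DG replicate 3.

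Other measures differed between the DG libraries as well. Dorsal DG had 6.78 to 7.85 M gene reads and 2.68% to 4.06% spike-in reads, ventral DG 14.8 to 16.5 M gene reads and 0.969% to 1.33%. Of 76 ribosomal protein genes, 56 were called higher in dorsal DG and 0 in ventral DG (median 0.99). OXPHOS genes with transcripts under 1000 bases had a median of 1.05, the longer ones 0.58, and other genes under 1000 bases 0.14. The OXPHOS genes of the mitochondrial genome did not share the shift: 3 of 12 were called higher in dorsal and 1 in ventral DG, with a median of -0.17. The 8 astrocyte markers summed to 414.0 to 455.7 CPM in dorsal and 659.2 to 770.0 CPM in ventral DG libraries. Nearly all of it was Slc1a2, which averaged 418.1 and 687.7 CPM and was also read in pyramidal cells, with 4453 CPM in dorsal CA3. The other astrocyte markers summed to 16.95 CPM in dorsal and 18.28 CPM in ventral DG. Their part in the difference was not tested.

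Between fields, averaged over dorsal and ventral cells, changes went in both directions. CA1 pyramidal cells were higher than granule cells in 24 of 76 genes and lower in 8 (33.1% of all genes called, 17.4% higher and 15.7% lower), and CA3 cells were higher in 21 and lower in 4 (36.5% of all genes, 19.6% higher and 16.9% lower). These comparisons share the DG libraries. Reads outside annotated genes averaged 41.4% and 44.6% of uniquely mapped reads in dorsal and ventral DG. They averaged 29.4% and 25.9% in dorsal and ventral CA1 and 22.4% and 22.95% in CA3, and their part in the differences was not tested. Atp5a1 stood at 614.9, 698.6 and 624.8 CPM in dorsal CA1, 711.0, 631.5 and 748.2 in ventral CA1, 594.3, 639.1 and 653.4 in dorsal CA3 and 775.9, 792.1 and 814.4 in ventral CA3, against 368.6, 306.5 and 357.7 in dorsal DG and 380.1, 391.8 and 376.8 in ventral DG. No pyramidal library overlapped with a granule cell library. It was 1.85-fold higher in CA1 than in DG (log2 SE 0.08, adjusted p = 9.87e-09, edgeR) and 1.94-fold higher in CA3 than in DG (log2 SE 0.08, adjusted p = 3.22e-09). Sdhd was 1.92- and 1.94-fold higher in CA1 and CA3 than in DG (adjusted p = 9.85e-05 and 8.02e-05). Sdha was 1.66-fold higher in CA3 than in DG (adjusted p = 6.18e-05), at 513.0 ± 44.2 and 495.0 ± 26.8 CPM in dorsal and ventral CA3 against 288.8 ± 98.9 and 319.0 ± 28.1 CPM.

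Further genes higher in pyramidal cells were Ndufa5, 2.45-fold higher in CA1 (adjusted p = 8.88e-05), Atp5c1, the F1 gamma subunit, 1.61-fold higher in CA1 and 0.59 higher on the log2 scale in CA3, Ndufa4, 1.61- and 1.64-fold higher, Cox5b, 1.65-fold higher in CA1, and Ndufa10, 1.55-fold higher in CA3. The genes higher in granule cells than in CA1 included Atp5g1 (1.53-fold), Ndufc1 (1.66-fold), Cox6a1 (1.58-fold), Cox8a (1.40-fold), Atp5g2 (1.58-fold) and Ndufb8 (1.81-fold), and those higher than in CA3 were Ndufb8 (2.29-fold), Ndufc1 (1.47-fold), Cox6a1 (1.38-fold) and Atp5g2 (1.53-fold). The call of Ndufb8 against CA1 was lost in 10 of 24 alternatives, among them the fit of all 48 libraries, a replicate block and the omission of any dorsal CA1 library, of ventral CA1 replicate 1 or 2, of dorsal DG replicate 2 or of ventral DG replicate 1 or 2. That of Atp5g2 was lost in 3 of 24 against CA1 (no filter, without dorsal CA1 replicate 3 or ventral DG replicate 2) and in 5 of 24 against CA3 (no filter, without dorsal CA3 replicate 3, ventral CA3 replicate 1, dorsal DG replicate 2 or ventral DG replicate 2). Cox6a1 illustrates how the average hides the axis, with 293.4 ± 84.1 CPM in dorsal DG, 69.3 ± 10.5 CPM in ventral DG and population means from 87.98 CPM in dorsal CA1 to 104.7 CPM in dorsal CA3 among the 4 pyramidal populations compared. Ndufc1, Ndufb8, Atp5g1 and Cox8a also differed along the axis. They averaged 102.6, 57.8, 281.5 and 187.3 CPM in dorsal DG and 34.3, 11.8, 102.6 and 99.3 CPM in ventral DG. In dorsal DG, Ndufb8 had an SD of 41.1 CPM. None of these ventral DG means lay above both CA1 means. Nor did ventral DG exceed both CA3 means in Ndufc1 (42.7 and 38.5 CPM) or Ndufb8 (10.7 and 12.2 CPM). Atp5g2 averaged 37.9 and 31.4 CPM in dorsal and ventral DG, above all 4 pyramidal means. Citric acid cycle and pyruvate dehydrogenase genes were higher in CA1 than in DG in 12 of 17, and glycolysis genes in 12 of 16, with 0 lower in each list, where 17.4% of all genes were higher in CA1.

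Few of the nuclear genes were called between CA1 and CA3: 1 of 76 higher in CA1 and 2 in CA3. Of all genes, 13.5% were called, 5.34% higher in CA1 and 8.15% in CA3. Cox5b, which binds zinc in complex IV, averaged 118.5 ± 22.7 and 133.9 ± 12.8 CPM in dorsal and ventral CA1 and 81.6 ± 13.4 and 99.95 ± 7.55 CPM in CA3 (1.40-fold, adjusted p = 0.0159, edgeR), with overlap between libraries. Cox7b and Atp5g1 were higher in CA3, 1.43-fold (adjusted p = 0.0112) and 1.33-fold (adjusted p = 0.0176), with no overlap. The mitochondrial genome differed from them: 12 of 12 of its OXPHOS genes were called higher in CA3 than in CA1, with a median log2 change of -1.11 for CA1 over CA3, and 11 of 12 higher in DG than in CA1, with -1.08. Cox5b lost its call without dorsal CA1 replicate 2 or dorsal CA3 replicate 2, and Atp5g1 without dorsal CA1 replicate 1, ventral CA1 replicate 2 or dorsal CA3 replicate 1 and in the fit of all 48 libraries.

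Postsubiculum-projecting cells, which lie in dorsal CA1 per the labels, were lower than the dorsal CA1 population in 20 of 76 genes and higher in 1, with 10.8% of all genes called, 5.24% higher and 5.58% lower. The median log2 change was -0.45 against 0.02 for all genes. The lower genes were 9 of complex I, 3 of 4 of complex II, 3 of complex IV, 4 of ATP synthase and Ndufa4. Atp5a1 stood at 183.1, 157.7 and 260.0 CPM against 614.9, 698.6 and 624.8 CPM (3.18-fold lower, log2 SE 0.16, adjusted p = 0.000167, edgeR). Atp5b stood at 606.5, 526.6 and 629.1 against 1163, 1586 and 1042 CPM (2.12-fold lower, log2 SE 0.14, adjusted p = 0.000821), and Sdha at 222.2, 204.0 and 219.5 against 394.6, 423.4 and 351.2 CPM (1.78-fold lower, log2 SE 0.11, adjusted p = 0.000838). All 3 genes, from F1 and complex II, had groups that did not overlap. Ndufb5, Ndufb9 and Ndufa4 were 3.56-, 3.24- and 2.65-fold lower.

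Ndufc1 was the exception, at 60.6, 98.6 and 89.6 CPM in postsubiculum-projecting and 35.9, 30.3 and 32.5 CPM in dorsal CA1 cells (2.56-fold higher, log2 SE 0.23, adjusted p = 0.00423, edgeR). Of the 12 tested OXPHOS genes of the mitochondrial genome, 9 were called higher in the projecting cells and 0 lower, with a median log2 change of 1.35. Reads of mitochondrial-genome OXPHOS genes per read of the 88 nuclear genes were 6.17 on average in these cells (5.32 to 6.72), the highest of the 16 populations, against 1.60 in dorsal CA1 and 0.775 in distal CA1, the lowest. Esrrg was 3.20-fold higher (adjusted p = 0.0483) and Etfb, an electron transfer flavoprotein subunit, 4.09-fold lower (adjusted p = 0.0208). Glycolysis genes were lower in 7 of 16 and citric acid cycle and pyruvate dehydrogenase genes in 6 of 16, where 5.58% of all genes were. Of 76 ribosomal protein genes, 10 were called lower and 3 higher, with a median of -0.38. Reads outside annotated genes made up 43.0% of uniquely mapped reads in the projecting libraries and 29.4% in the dorsal ones, and their part in the difference was not tested. Dorsal and ventral DG were also high in this share, at 41.4% and 44.6%. Leaving out dorsal CA1 replicate 1, 2 or 3 lowered the count of 21 calls to 13, 9 and 12.

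Amygdala- and accumbens-projecting cells were higher than the ventral CA1 population in a small set in which complex IV held 4 and 3 of the calls. Against ventral CA1, 7 of 76 genes were called higher in amygdala-projecting cells (2.38% of all genes called, 1.59% higher and 0.786% lower) and 5 in accumbens-projecting cells (2.04%, 1.49% higher and 0.555% lower), and 0 lower in either. Both comparisons share the ventral CA1 libraries. Ndufc1 stood at 123.1, 126.0 and 126.6 CPM in the cells with amygdala targets, at 143.0, 66.1 and 106.7 CPM in those with accumbens targets and at 40.2, 34.5 and 41.2 CPM in ventral CA1, 3.26-fold (log2 SE 0.31, adjusted p = 0.00695, edgeR) and 2.75-fold higher (log2 SE 0.31, adjusted p = 0.0216). Cox8a stood at 197.8, 242.1 and 219.5, at 291.5, 175.1 and 293.4, and at 112.0, 90.2 and 108.6 CPM in the same order, 2.14- and 2.47-fold higher (adjusted p = 0.0208 and 0.00933). Neither gene overlapped with ventral CA1.

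Cox7c was 1.94- and 1.78-fold higher (adjusted p = 0.0114 and 0.0308, edgeR; with a replicate block the accumbens call was lost) and Uqcr10, a small complex III subunit, 2.93- and 2.60-fold (adjusted p = 0.0142 and 0.031). Cox7b and Ndufc2 were called for the amygdala-projecting cells, 2.20- and 2.94-fold higher, and Cox6a1 for the accumbens-projecting cells, 2.33-fold. The coactivator Ppargc1a was 2.42- and 2.12-fold higher, and 11 of 12 mitochondrial-genome OXPHOS genes were called higher in each. Between the 2 projections edgeR called 0 of 76 genes (0.0231% of all genes, 0% and 0.0231% by direction; 6 with an unadjusted p under 0.05, 0 called by DESeq2), also without any library in turn, while the fit of all 48 libraries called 3. Accumbens replicate 3 listed Ndufa1 at 0.367 CPM, beside 17.5 and 11.3 CPM in its group. Of the 6 endothelial markers, 4 reached 1 CPM in amygdala-projecting cells and 1 each in accumbens-projecting and ventral CA1 cells. Their sum ran from 52.9 to 100 CPM, from 12.2 to 56.2 CPM and from 0 to 4.74 CPM in that order, most of it Kdr. Pecam1, Tek and Flt1 averaged 3.65, 4.90 and 1.52 CPM in amygdala-projecting cells and 0.193, 0.27 and 0 CPM in ventral CA1, and the defining marker Cldn5 was at 0 in the 3 groups. Sst averaged 21.8 CPM in amygdala-projecting, 174.1 CPM in accumbens-projecting and 1.42 CPM in ventral CA1 cells, the accumbens value coming mostly from replicate 3. Reads outside annotated genes averaged 28.9% of uniquely mapped reads in amygdala-projecting, 35.9% in accumbens-projecting and 25.9% in ventral CA1 cells. Of 76 ribosomal protein genes, 5 were called higher and 1 lower in amygdala-projecting than in ventral CA1 cells. Their median log2 change was 0.46. For accumbens-projecting cells 3 were called higher and 0 lower, with a median of 0.34. The medians of the OXPHOS genes were 0.43 and 0.18 in that order, against 0.07 and 0.11 for all genes. The part of these markers, reads and ribosomal genes in the differences was not tested. The calls rest on few libraries: leaving out ventral CA1 replicate 1, 2 or 3 left 1, 0 and 3 of the 7 calls and 0, 0 and 1 of the 5, leaving out amygdala replicate 2 or 3 left 3 each of the 7, and leaving out amygdala replicate 3 or accumbens replicate 1 or 3 left 3, 2 and 1 of the 5. Without accumbens replicate 2, the library that stood apart, 6 were called.

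Along the long and the superficial-to-deep axes of CA1, edgeR called few nuclear OXPHOS genes. Sdha was called between dorsal and intermediate cells, 1 of 76 genes where 4.93% of all genes were called, 1.69% higher in dorsal and 3.24% in intermediate cells, at 394.6, 423.4 and 351.2 against 461.2, 520.1 and 505.1 CPM (1.30-fold higher in intermediate cells, log2 SE 0.10, adjusted p = 0.0316, edgeR). That call was lost in the fit of all 48 libraries, with the replicate number in the model and without dorsal replicate 1 or 3 or intermediate replicate 2 or 3. Between intermediate and ventral cells edgeR called 0 of 76, where 5.03% of all genes were called, 3.12% and 1.91% by direction. There 6 had an unadjusted p under 0.05, and DESeq2 called 0. Between superficial and deep cells edgeR called 0 of 76, where 2.48% of all genes were called, 0.886% and 1.6% by direction. There too 6 had an unadjusted p under 0.05, and DESeq2 called 2. Deep CA1 held more interneuron markers than superficial CA1. Gad2 averaged 353 against 41.12 CPM, Gad1 67.42 against 14.55 CPM and Sst 39.49 against 0.4389 CPM. Their part in this comparison was not tested.

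Proximal and distal cells shared a lean without a call. Of 77 genes tested, edgeR called 0, where 1.06% of all genes were called (0.818% higher in proximal and 0.244% in distal cells). Of the 77, 64 leaned to distal cells and 21 had an unadjusted p under 0.05. The median log2 change was -0.26 against 0.00 for all genes. DESeq2 called 6, all higher in distal cells, and its share over all genes is not given here. Cox6b1, at 110.9, 123.6 and 100.1 CPM in proximal and 203.2, 152.6 and 206.5 CPM in distal cells, had the smallest p and is named here after its values were seen. The groups did not overlap in that gene. Ribosomal protein genes had a median of -0.28 in the same comparison. Leaving out each library in turn, proximal replicate 1 included, gave 0 calls throughout.

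The 3 genes for the c subunit of ATP synthase, which encode the same mature protein with different import signals, were balanced differently by population. In FPKM, Atp5g3 and Atp5g1 were close in dorsal CA1, at 166.4 ± 25.3 and 161.2 ± 2.31 (SD, n = 3), with Atp5g2 at 34.6 ± 5.64. PV interneurons had 663.0 ± 31.1 of Atp5g3 and 329.9 ± 57.0 of Atp5g1. Dorsal DG had the reverse order, 194.6 ± 26.1 of Atp5g3 and 480.1 ± 99.5 of Atp5g1, and ventral DG 112.3 ± 10.4 and 138.7 ± 4.17. Atp5g2 was highest in distal CA1, at 147.1 ± 10.1, beside 357.2 ± 36.7 of Atp5g3 and 249.4 ± 18.7 of Atp5g1. The balance between them was not tested as a ratio.

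Transcript length bears on the list because its genes are short: the median over 84 genes with a length in the reference annotation was 655 bases, against 1949 bases for all protein-coding genes. In PV interneurons against dorsal CA1, OXPHOS genes under 1000 bases had a median log2 change of 1.51 and longer ones of 0.94, while other genes under 1000 bases had 0.39. For SST interneurons the 3 values were 1.16, 0.61 and 0.39. In postsubiculum-projecting against dorsal CA1 cells they were -0.45, -0.40 and -0.13. Amygdala-projecting cells against ventral CA1 gave 0.50, 0.04 and 0.17, and accumbens-projecting cells 0.33, -0.30 and 0.19, the long and the short OXPHOS genes there lying on opposite sides of 0. In each of these comparisons the OXPHOS genes under 1000 bases had a median farther from 0 than other genes of that length. The part of length in the differences was not tested.

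**Figure D5:**
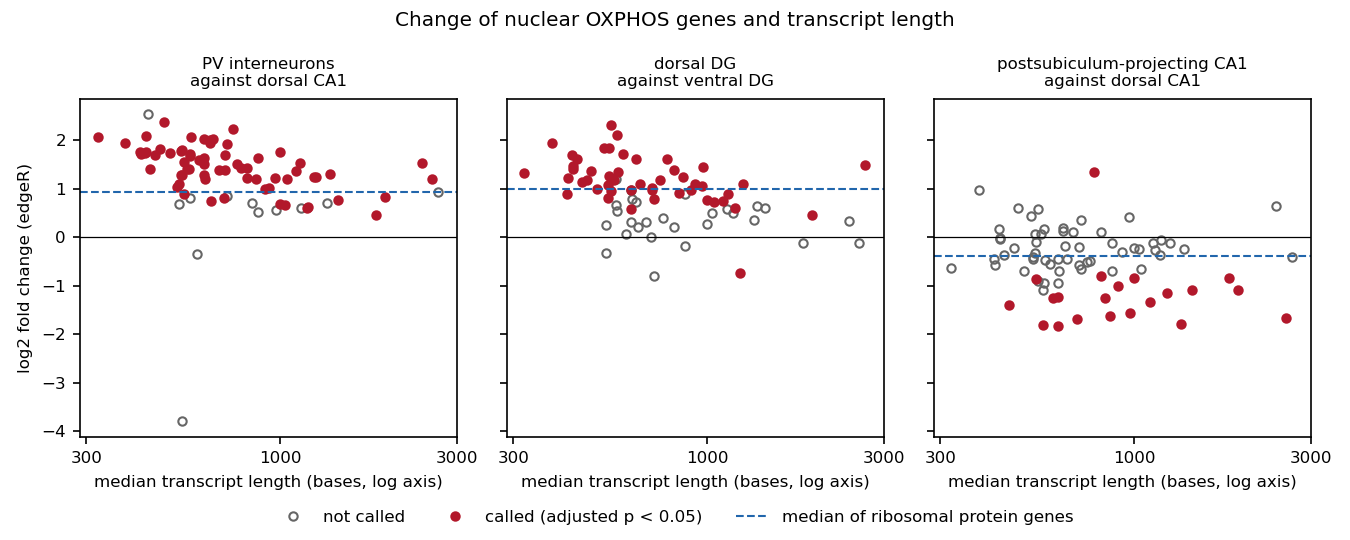
Log2 fold change (edgeR) of each nuclear OXPHOS gene with a length against its median transcript length in bases (log axis) in 3 comparisons, filled where called, with the median of the ribosomal protein genes as a dashed line. Cox6a2 and Cox8b lie beyond the axis in PV interneurons over dorsal CA1, and Sdhd is the filled point below 0 in dorsal over ventral DG.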

How the data were processed

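RNA of 48 libraries of hand-sorted mouse neurons (16 populations of 3) was amplified with an Ovation kit and sequenced, per the labels' protocols. The authors deposited counts of reads per gene and, separately, FPKM values. HTSeq, DESeq2, Cuffdiff 2.1.1 and TopHat2 2.0.6 are the tools, and mm9 and NCBIM37 the builds, in the submitters' processing notes, without their roles, and whether reads were counted by strand is not given in the sources used here. Count columns name the population, so replicate numbers follow the column names.

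Spike-in rows (92) and summary rows (5) were left out. Symbols, given for 32897 of 37620 genes, and lengths came from an annotation of another build, and no coordinates of the files were used. Counts were scaled by TMM and tested with edgeR 4.0.16 (quasi-likelihood, low counts filtered, R 4.3.3, Benjamini-Hochberg adjustment over all genes of a fit), with a fit per family of populations. CPM values use the same scaling, and log2 values a pseudocount of 0.5. Alternatives were DESeq2 1.42.0, its size factors, scaling without mitochondrial genes, no filter, a fit of all 48 libraries, a replicate block and leaving out each library. FPKM served only to set genes side by side, and 2 values of 1 gene marked as failed were left out.

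The genes and lists were chosen with earlier results of these data known. Genes were named by a rule: up to 6 called genes per direction with at least 10 CPM in the higher group, in order of p, a reference subunit per complex, tissue-restricted isoforms, the c-subunit genes, the highest and lowest FPKM per complex, called regulators and electron carriers, and the 8 most alike genes. A gene that the rule names is not reported here by name, though it stays in all counts and medians. No replicate pair of 48 was identical (lowest chi-square per degree of freedom 12.3). In no comparison did all same-numbered libraries deviate together. Tested on simulated data for proximal against distal CA1 (12611 genes, biological coefficient of variation 0.3), the test recovered 19% of 100 genes changed 2-fold and 96% of 100 changed 4-fold, and for PV against SST interneurons (13541 genes) 25% and 99%. The fits to the data had higher coefficients, 0.5225 and 0.6238 in that order, so these rates can overstate recovery in the data. Only genes with more reads were changed, and the second simulation left out the dorsal CA1 libraries.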

Additional observations from a re-analysis of the deposited data

Results flagged for a closer look

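The dorsal-to-ventral change of nuclear OXPHOS genes differed between fields by a test of the difference itself. In DG against CA1 the test called 25 of 76 genes, where 9.71% of all genes were called (4.62% larger in DG and 5.09% smaller). In DG against CA3 it called 36 of 76, where 9.47% of all genes were called (4.18% larger and 5.29% smaller). All OXPHOS genes called had the larger dorsal excess in DG (edgeR interaction terms). The tests were added after the within-field values were seen. With each library left out in turn, the counts ran from 13 to 35 and from 21 to 40. Both tests use the same 6 DG libraries. Groups of 3 libraries are too small for the test of single outlying samples, so none was run.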

How the results depend on the processing

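Of 347 recomputed counts of calls, 295 stayed within 1.5 times the reported count and 52 did not. Of 1272 recomputed calls of named genes, 1166 held, 106 missed the threshold, 93 of them with a library left out, and 0 reversed. The counts for PV and SST interneurons against dorsal CA1, CA1 and CA3 against DG, and dorsal against ventral DG stayed within 1.5 times under each alternative. DESeq2 called 3 genes between dorsal and intermediate CA1, 6 between proximal and distal, 2 between superficial and deep, 10 for accumbens-projecting against ventral CA1, 9 for PV against SST interneurons, 6 for CA1 against CA3, 3 for dorsal against ventral CA3 and 44 for the long axis of DG against CA1. Without a filter, 2 were called between proximal and distal and 9 for accumbens-projecting against ventral CA1. The fit of all 48 libraries called 0 between dorsal and intermediate CA1, 3 between amygdala- and accumbens-projecting cells, 13 and 12 for these against ventral CA1, and 13 for the long axis of DG against CA1. With each library left out in turn, counts ran from 0 to 2 for dorsal against ventral and against intermediate CA1, 0 to 9 for amygdala-projecting and 0 to 6 for accumbens-projecting against ventral CA1, 9 to 23 for postsubiculum-projecting cells, 0 to 5 for PV against SST interneurons, 2 to 5 for CA1 against CA3, 0 to 1 for dorsal against ventral CA3, and 13 to 35 and 21 to 40 for the long axis of DG against CA1 and CA3. With a replicate block, 0 genes were called between dorsal and intermediate CA1, 29 between CA1 and DG, 23 between CA3 and DG and 3 between CA1 and CA3, and the calls of Atp5a1 (PV against SST interneurons), Cox7c (accumbens-projecting against ventral CA1), Ndufb8 (CA1 against DG) and Sdha (dorsal against intermediate CA1) were lost. The shared numbers do not show pairing. The cause of these shifts was not tested. Shares of all genes called under the alternatives are not given here, so their counts cannot be set against such a share. The 2 long-axis tests and the description by length were added after seeing the data. At 3 libraries a group, simulated 2-fold changes were mostly missed, so a count of 0 does not show equal levels.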

Other observations

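Glycolysis genes differed between dorsal and ventral CA1, where the nuclear OXPHOS genes gave no call: 8 of 15 tested were called higher in ventral than in dorsal cells (edgeR), Eno1, Pkm, Pgam1, Pfkp, Gpi1, Aldoa, Ldha and Pfkm, with a median log2 change of -0.32 for dorsal over ventral, and 7.95% of all genes were called higher in ventral cells. These genes carry glucose to pyruvate and lactate. Between CA1 and CA3, 6 of 16 were higher in CA3 and 1 in CA1, where 8.15% and 5.34% of all genes were.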
